A study of Rhizophagus irregularis DAOM 181602=DAOM 197198 with 30 samples.

Results

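The class V aminotransferase model gm1.3370_g is 1 of the 30282 gene models listed in each of the 5 deposited tables for the arbuscular mycorrhizal fungus Rhizophagus irregularis, and it was chosen by its protein ID in the JGI catalogue Gloin1. Protein 3482's gene carries the name gm1.3370_g there, and the tables give it a length of 1656 bases, which is 552 codons. The files describe its protein by 2 InterPro entries, the class V aminotransferase/cysteine desulphurase domain and the major region of pyridoxal phosphate-dependent transferases, and by the KOG group of molybdenum cofactor sulfurases. It was picked because its transcript was already known to be higher with GR24 at 7 d and 14 d, so each of its own values from those libraries is given as a description without a p-value. The files used here give no coordinates, and no protein sequence for the model was at hand.

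Class V aminotransferases belong to the large group of enzymes that hold the vitamin B6 form pyridoxal 5'-phosphate as cofactor. The fold is shared by transaminases and by cysteine desulfurases, which strip the sulfur from cysteine and pass it on to iron-sulfur clusters, transfer RNA or the molybdenum cofactor. A eukaryotic molybdenum cofactor sulfurase joins such a desulfurase part to a C-terminal MOSC part, and it adds the terminal sulfur that xanthine dehydrogenase and aldehyde oxidase need. Arbuscular mycorrhizal fungi germinate from spores and respond to strigolactones, hormones that plant roots release, before they reach a root.

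The libraries came from germinating spores of strain DAOM197198. For the time course, 80000 spores were kept for 2 d in liquid M medium in the dark with 2% CO2 until they germinated and were then given the synthetic strigolactone GR24 at 1e-06 M or acetone, its solvent, diluted 1 in 1000, for 1 h, 2 d, 7 d or 14 d. In the root set, 60000 spores lay for 14 d on cellophane over carrot hairy roots (titled root exudates) or over the same gelled medium without roots. Messenger RNA was selected by its poly-A tail, and 25 of the 30 labelled libraries, 2 or 3 in each of the 10 groups, have a column in the files and were analysed here. They held from 5786080 to 11812317 gene reads each. The headings of the root table name its 2 groups the other way round from the titles. The titles were followed, so the direction of that comparison turns round should the headings hold. Whether replicates were separate cultures is not stated, and p-values then cover just the spread between these libraries, which may be technical. In these mixed preparations, fewer cells that use a gene and less RNA per cell cannot be told apart.

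The transcript of model gm1.3370_g was close to absent for the first 2 d and became abundant later in both arms of the time course. Across the 15 libraries of 1 h, 2 d and the root set, which together held 126027094 gene reads, it had 10 reads, and 10 of those libraries had none. Across the 10 libraries of 7 d and 14 d it had all the others of its 3774 reads, and 91.5% of its reads came from the 14 d libraries. None of the 3774 reads matched a second model, so the total and the unique count were equal in every library. Counts in the text are total gene reads, and CPM is the count scaled for library depth with TMM factors.

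At 1 h the 2 acetone libraries had 1 read each, 0.108 and 0.126 CPM, and the 3 GR24 libraries had 0 reads. The 0 reads over the GR24 group allow up to 0.109 CPM (3 reads over the group, counting error only). Both groups lie at or under 3 reads, so no fold is given. At 2 d the 3 acetone libraries had 0 reads, which allows up to 0.116 CPM, and the 2 GR24 libraries had 4 and 3 reads, 0.574 and 0.288 CPM. These counts mark the first GR24 libraries in which the transcript was seen.

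At 7 d the 2 acetone libraries had 7 and 5 reads, 1.23 and 0.435 CPM, and the 2 GR24 libraries had 178 and 120 reads, 19.6 and 14.4 CPM. The lower GR24 library stood far above the higher acetone library. At 14 d the 3 acetone libraries had 91, 166 and 163 reads, which are 14.7, 18.2 and 15.6 CPM. The 3 GR24 libraries had 999, 732 and 1303 reads, which are 99.96, 72.3 and 122 CPM, and the groups did not overlap.

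**Figure D1:**
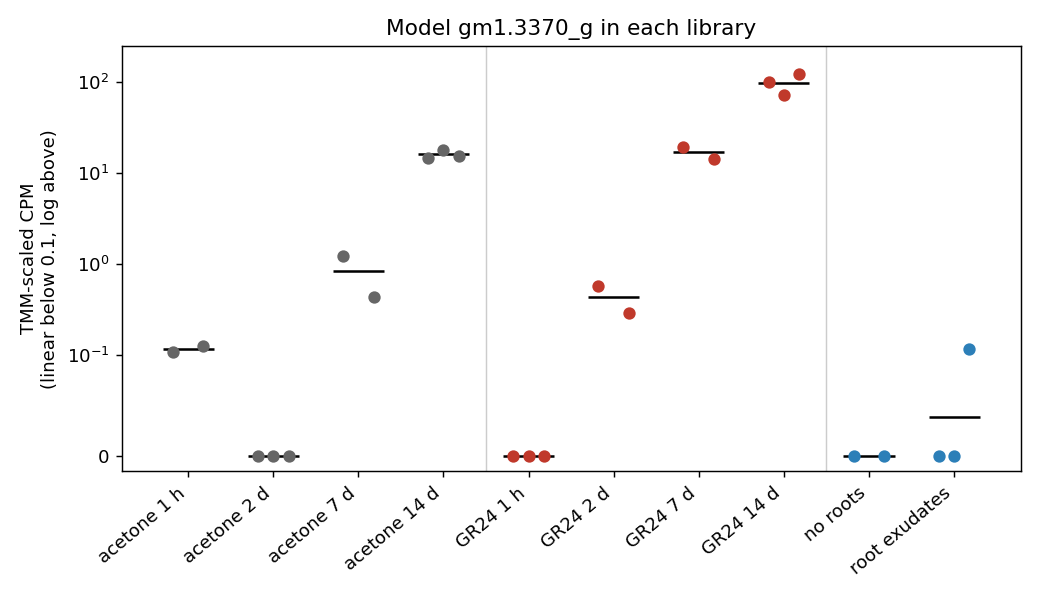
TMM-scaled CPM of model gm1.3370_g (vertical axis, linear below 0.1 and logarithmic above) in each of the 25 libraries, by group, with a bar at each group's mean. The 14 d GR24 libraries sit between 72.3 and 122 CPM, the 7 d GR24 and 14 d acetone libraries share the range from 14.4 to 19.6 CPM, and every library of the root set lies below 0.2 CPM.

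Ordered by mean level, the groups fell into steps. The highest was GR24 at 14 d with 98.2 ± 25.1 CPM (SD, n = 3). Next came GR24 at 7 d with 17.0 ± 3.67 CPM (n = 2) and acetone at 14 d with 16.2 ± 1.82 CPM (n = 3), whose libraries overlapped: spores with GR24 for 7 d held about the level that acetone spores held at 14 d. Acetone at 7 d, with 0.834 ± 0.565 CPM (n = 2), and GR24 at 2 d, with 0.431 ± 0.202 CPM (n = 2), overlapped as well. The other 5 groups held 0 to 2 reads each. Relative to the mean, the 2 libraries of acetone at 7 d differed by a coefficient of variation of 67.7% on 12 reads, and the 3 of acetone at 14 d by 11.3% on 420 reads.

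Per length, the level at 14 d with GR24 was 59.5 ± 15.0 RPKM (reads scaled for model length and library depth, deposited by the authors), and 22.4% of the 19748 models with a read in that group stood higher. At 14 d in acetone it was 9.66 ± 1.02 RPKM, with 51.7% of models higher, so the model stood near the middle of the transcriptome. At 7 d it was 10.2 ± 2.19 RPKM with GR24, with 52.8% of models higher, and 0.493 ± 0.336 RPKM with acetone, with 86.7% higher.

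The differences that led to the choice of the model are given here without a test. In edgeR's fit the log2 fold change of GR24 over acetone was 4.56 ± 0.36 (SE) at 7 d and 2.59 ± 0.26 at 14 d. By this value model gm1.3370_g ranked 12 of 14269 models at 7 d, where edgeR called 4.31% of models higher and 2.12% lower, and 12 of 14080 at 14 d, where it called 1.29% higher and 1.95% lower. The 7 d value rests on the 12 acetone reads: leaving out acetone replicate 1 gave 5.25 and leaving out acetone replicate 2 gave 3.76. The authors' deposited table gives folds of weighted proportions of 20.8 at 7 d and 6.15 at 14 d.

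The differences between times were as large as those between treatments. From 7 d to 14 d in acetone the log2 fold change was 4.49 ± 0.33, the highest of the 14347 models in that comparison. It rests on the same 12 acetone reads of 7 d, and was 5.18 with acetone replicate 1 of 7 d left out and 3.70 with replicate 2 left out. From 2 d to 7 d with GR24 it was 5.35 ± 0.39, the second highest of 14398, and from 7 d to 14 d with GR24 it was 2.52 ± 0.33, which ranked 7 of 14665. From 2 d to 7 d in acetone, 12 reads stood against 0, which is 5.87-fold higher when the empty group is set to 3 reads. The counting error of the 12 reads is not in this value, so it is no lower bound. These values use the libraries in which the GR24 response was seen, and the acetone and GR24 series were sampled at the same times without libraries in common.

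The comparisons that use no 7 d or 14 d library of the time course could be tested, but model gm1.3370_g had too few reads to pass edgeR's filter in any of them, so the planned test gives no value. An exact 2-sided permutation test over the libraries' CPM, added after the counts were seen, cannot go below p = 0.2 with 3 libraries against 2. At 2 d, GR24 exceeded acetone in 2 of 2 libraries, with 7 reads against 0 (exact permutation p = 0.2). With the empty group set to 3 reads the level was 3.39-fold higher. At 1 h the order was the other way round, 0 against 2 reads (exact permutation p = 0.2). From 1 h to 2 d with GR24, 7 reads stood against 0, which is 3.6-fold higher with the empty group set to 3 reads (exact permutation p = 0.2). Neither fold takes in the counting error of the 7 reads, so neither is a lower bound. In acetone the 2 d group had 0 reads and the 1 h group 2 (exact permutation p = 0.2). The design is thus too small for this test to reach 0.05 on these libraries. In edgeR's quasi-likelihood fit of all models with a read, which keeps the model in, the Benjamini-Hochberg adjusted p was 0.168 for GR24 at 2 d, 0.614 for GR24 at 1 h, 0.371 for acetone from 1 h to 2 d and 0.0483 for GR24 from 1 h to 2 d. In that fit the GR24 effect at 2 d minus that at 1 h had an adjusted p of 0.139.

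In the root set the transcript stayed near 0 at 14 d. The 2 libraries without roots had 0 reads among 15254622, which allows up to 0.197 CPM, and the 3 titled root exudates had 0, 0 and 1 read. The groups overlapped (exact 2-sided permutation p = 1), and the adjusted p in edgeR's fit without a filter was 0.71. No response to the roots was detectable at this depth, and none of the 5 libraries came near the level of the spores kept for 14 d with acetone in liquid medium. With the libraries without roots set to 3 reads, acetone at 14 d was 82.1-fold above them and GR24 at 14 d 503-fold. These groups come from different cultures, with liquid against gelled medium under cellophane, another number of spores, acetone or none, and 2 d of germination before the 14 d in the time course alone, so the parts of medium, spore density, solvent and age cannot be told apart. In acetone at 14 d, 8997 models had a mean of at least 10 CPM. Of these, 8 had 3 reads or fewer in the libraries without roots, which is 0.0889%. Model gm1.3370_g is among them. The 10 CPM limit was set with its values known, so the count only describes how uncommon such a gap was.

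By the limits used here, few models had this switch from silent to abundant. Of the 9046 models with a mean of at least 10 CPM with GR24 at 14 d, 2 had a mean under 1 CPM in all 6 groups of 1 h, 2 d and the root set (0.0221%). They were model gm1.3370_g and model 326783, described as a rhodopsin-like G protein-coupled receptor, a membrane protein class that passes outside signals to G proteins. Both limits were set after the values of model gm1.3370_g had been seen, so the count describes how uncommon the shape was at these limits. Similar courses fell just outside them. Model 7411 reached 39.1 CPM with GR24 at 14 d but had 1.15 CPM with GR24 at 2 d. Model 92118 had at most 0.048 CPM in the 6 groups but reached 4.49 CPM.

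The other class V models did not share this course. The family list holds 7 models, gm1.3370_g included, and all 7 had reads. Per length, the other 6 were present in every group: kynureninase (340544), which cleaves kynurenine in tryptophan breakdown, held from 128 to 310 RPKM, and the mitochondrial-type cysteine desulfurase NFS1 (348752), which supplies sulfur for iron-sulfur clusters, from 119 to 237 RPKM. The alanine-glyoxylate aminotransferase (77768), which turns glyoxylate into glycine, held from 57.6 to 102 RPKM. The phosphoserine aminotransferase (8691), a step of serine synthesis, held from 20.9 to 40.8 RPKM. The LolT-like model 26090, of the same KOG group as NFS1, was less even, with 37.9 RPKM at 1 h and 7.48 RPKM at 14 d in acetone, and thus the opposite course to model gm1.3370_g.

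**Figure D2:**
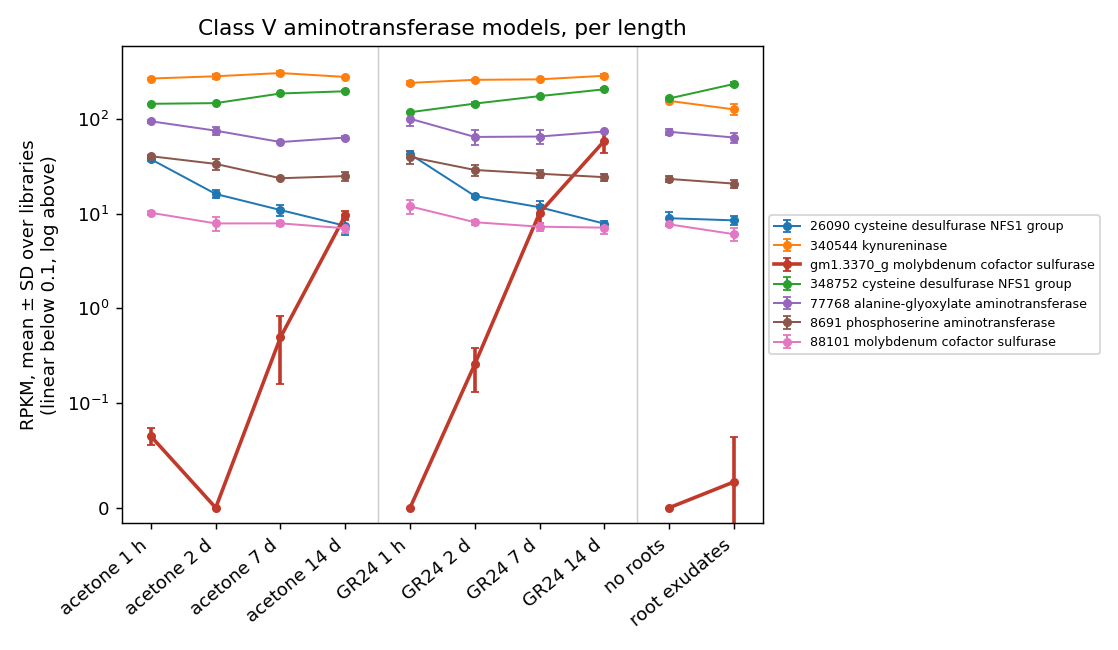
RPKM (vertical axis, linear below 0.1 and logarithmic above) of the 7 class V models in the 10 groups, as mean ± SD over the libraries of a group. Model gm1.3370_g climbs from near 0 to 9.66 RPKM in acetone and to 59.5 RPKM with GR24, while the other 6 models stay between 6.1 and 310 RPKM in every group.

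The closest relative by description is model 88101, the only other member of the molybdenum cofactor sulfurase group. It is 2496 bases long, which is 832 codons, and the files list for it the N-terminal and C-terminal MOSC entries that model gm1.3370_g lacks. Its level was even, from 6.1 RPKM with root exudates to 12.0 RPKM with GR24 at 1 h. At 14 d it had 18.7, 19.1 and 15.4 CPM in acetone and 20.7, 15.6 and 17.1 CPM with GR24, and these overlap. Its log2 fold change there was 0.01 ± 0.14 (edgeR adjusted p = 0.981), and at 7 d it was -0.14 ± 0.18 (edgeR adjusted p = 0.808). Per length, model gm1.3370_g stood 8.31-fold above model 88101 with GR24 at 14 d and 1.37-fold above it in acetone at 14 d, and it was the lower of the pair in acetone at 7 d and in all groups of 1 h, 2 d and the root set.

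None of the other 6 class V models passed the test with GR24 at 2 d, 7 d or 14 d in edgeR's main fit. Their log2 fold changes lay between -0.25 and 0.19. At an unadjusted p under 0.05 edgeR had 0, 1 and 0 of the 6 at these times, DESeq2 called none, and limma-voom called 1 at 7 d. Their medians were -0.06, -0.04 and 0.04, beside medians of 0.00 over all models tested, where 2.15% (1.02% higher and 1.13% lower), 6.43% and 3.25% of models were called. The nearest was kynureninase at 7 d, at -0.25 ± 0.08 (adjusted p = 0.0524 by edgeR), which edgeR with RLE size factors and limma-voom called lower. At 1 h, where 10.4% of models were called (7.05% higher and 3.39% lower), 1 of the 6 was called lower and none higher. This was NFS1 (348752), with 220 and 216.5 CPM in acetone and 181, 184 and 179 CPM with GR24, and the groups did not overlap. Its log2 fold change was -0.25 ± 0.07 (edgeR adjusted p = 0.0141), and the call ended without acetone replicate 2 (adjusted p = 0.167) or replicate 3 (0.156).

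In the root comparison, where 15.2% of models were called (7.46% higher and 7.75% lower), NFS1 was again the one member called of 6, here higher. It had 218 and 220 CPM without roots and 350, 309 and 321 CPM in the libraries titled root exudates, and the groups did not overlap. Its log2 fold change was 0.57 ± 0.08 (edgeR adjusted p = 7.62e-04), and it stayed called in the 12 alternatives run, with adjusted p up to 0.0175. The other 5 lay between -0.28 and -0.01.

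**Figure D3:**
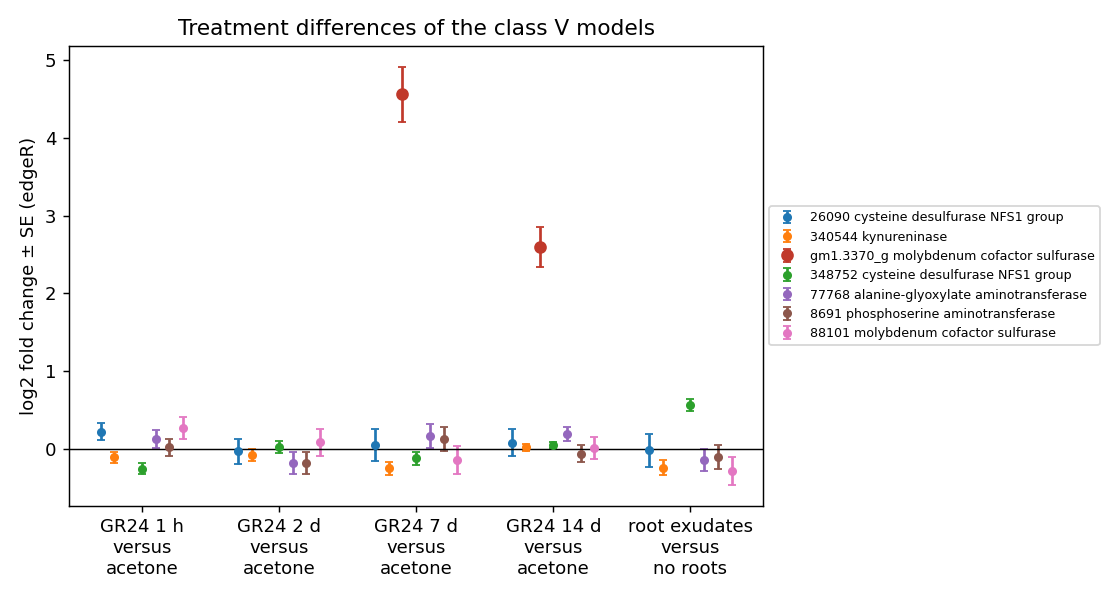
Log2 fold change ± SE from edgeR (vertical axis) of the 7 class V models in the 5 treatment comparisons, with model gm1.3370_g in the 2 where it had reads enough to be fitted. Model gm1.3370_g lies at 4.56 and 2.59, and the other 6 lie between -0.28 and 0.57 throughout.

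The list of other aminotransferases was drawn by keyword and takes in a 5-aminolevulinate synthase. Of its 30 models, 27 were tested in each comparison. At 1 h 3 were higher and 2 lower with GR24, at 2 d edgeR called none (10 had an unadjusted p under 0.05, and DESeq2 and limma-voom called 1 each), at 7 d 1 was higher, at 14 d 2 were lower, and with root exudates 2 were higher and 2 lower. Over all models tested the shares called were 10.4%, 2.15%, 6.43%, 3.25% and 15.2% in the same order. Of the 2 lower at 14 d, model 14421 lost its call in 6 of 13 alternatives, with adjusted p up to 0.177 by edgeR. The 5-aminolevulinate synthase model 334806, the first enzyme of heme synthesis, rose at 1 h by 0.76 ± 0.06 on the log2 scale (edgeR adjusted p = 3.85e-10). At 14 d it was lower by a log2 fold change of -0.26 ± 0.05 (edgeR adjusted p = 0.00631), a call that ended without GR24 replicate 1 (0.0554) and in 1 fit of all libraries (0.686). The acetylornithine aminotransferase model 93473, a step of arginine synthesis, rose at 1 h by 0.53 ± 0.08 (edgeR adjusted p = 1.56e-05). The single rise at 7 d was a class III model annotated for biotin synthesis, 95709, at 1.46 ± 0.41 (edgeR adjusted p = 0.0174), which lost its call without acetone replicate 2 (0.203) or GR24 replicate 3 (0.259) and by DESeq2 (0.220).

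The vitamin B6 list, drawn by keyword for the cofactor that class V enzymes use, holds 16 models, of which 14 were tested at 1 h and 15 in the other comparisons. EdgeR, DESeq2 and limma-voom called none at 1 h or 2 d (4 and 2 had an unadjusted p under 0.05 in edgeR), 1 was higher and 3 lower at both 7 d and 14 d, and 6 were higher and 2 lower in the root comparison, beside shares over all models of 6.43%, 3.25% and 15.2%. The same 4 models were called at 7 d and 14 d in edgeR's main fit, and 3 of them are aldo/keto reductases described as pyridoxine 4-dehydrogenases, which oxidise pyridoxine to pyridoxal. Some members carry the keyword without making the vitamin, such as the glycogen phosphorylase model 78197, the other one of the 4. Its call ended in 4 of 10 alternatives at 7 d and in 4 of 13 at 14 d, with adjusted p up to 0.444 and 0.214 by edgeR. Model 19893 rose with GR24 by 1.51 ± 0.31 at 7 d (edgeR adjusted p = 5.25e-04) and by 1.15 ± 0.19 at 14 d (edgeR adjusted p = 9.68e-04). The 7 d call ended without acetone replicate 2 (0.0718). It is a low and late transcript as well, with 0.216 CPM at 1 h and 5.83 CPM at 14 d in acetone and 13.5 CPM with GR24 at 14 d.

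Another pyridoxine dehydrogenase model, 336141, moved the other way. It fell with GR24 by a log2 fold change of -0.90 ± 0.12 at 7 d (edgeR adjusted p = 6.79e-08) and of -0.48 ± 0.06 at 14 d (edgeR adjusted p = 5.31e-05), and it rose by 0.96 ± 0.14 with root exudates (edgeR adjusted p = 0.00313). The short model 28301 was at -1.25 ± 0.26 at 7 d (edgeR adjusted p = 4.25e-04) and 1.68 ± 0.29 in the root comparison (edgeR adjusted p = 0.0033). At 14 d it was at -0.93 ± 0.20 (edgeR adjusted p = 0.0115), and that call ended without GR24 replicate 1 (0.0751) or 2 (0.053) and without acetone replicate 2 (0.0654) or 3 (0.0814). The vitamin B6 biosynthesis protein of the SOR/SNZ family (258185), the model in the list that is described as making the vitamin, was not called in any of the 5 treatment comparisons.

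The models most like gm1.3370_g were ranked by Pearson's r of log2 CPM over the 25 libraries, among 16231 models with reads enough. These values describe the libraries, which share depth, time and treatment, and carry no p-value. Of the 16231 models, 15 had r over 0.9, and the median of all was -0.01. The highest was the receptor-like model 326783 (r = 0.98). It had 13.1, 14.7 and 10.8 CPM in acetone at 14 d and 51.7, 30.1 and 61.0 CPM with GR24 at 14 d. Its 3 GR24 libraries stood in the same order as those of model gm1.3370_g. That order was not particular to it: models 349517, 344599, 335485 and 7411 had it too, and model 92118 did not. At 7 d model 326783 had 1.76 and 1.31 CPM in acetone and 17.7 and 12.0 CPM with GR24. Its log2 fold change was 3.33 ± 0.31 there and 1.90 ± 0.34 at 14 d.

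Next came model 92118 (r = 0.96), a short model without a description that reached 4.49 ± 0.84 CPM with GR24 at 14 d. Model 349517 (r = 0.96) is described as a sulfate permease, which carries sulfate into the cell. Unlike model gm1.3370_g it was never silent: it held 29.4 ± 0.433 CPM at 1 h and 577 ± 107 CPM at 14 d in acetone, and 827 ± 177 CPM with GR24 at 14 d. With GR24 at 1 h it already held 67.3 ± 10.4 CPM, without overlap with acetone, at a time when model gm1.3370_g had no read with GR24. Its log2 fold change with GR24 was 1.21 ± 0.12 at 1 h, 1.32 ± 0.09 at 7 d and 0.51 ± 0.23 at 14 d, and it stood at 61.7 CPM without roots and 47.8 CPM with root exudates, against 49.2 CPM at 2 d in acetone.

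The remaining 3 were an NADPH dehydrogenase of the old yellow enzyme group (344599, r = 0.96), a flavoprotein oxidoreductase with a siroheme synthase entry (335485, r = 0.96), and model 7411 (r = 0.95), which has no description. Model 7411 went from 0.342 CPM at 1 h to 19.1 ± 2.56 CPM at 14 d in acetone, and to 39.1 ± 7.58 CPM with GR24 at 14 d. The models at the other end were 341753 (r = -0.93), without a description, and 200960 (r = -0.92), described as a glyoxal oxidase, a copper enzyme that makes hydrogen peroxide. In acetone the glyoxal oxidase model stood at 27.5 ± 2.4 CPM at 1 h and 6.45 ± 0.75 CPM at 14 d.

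**Figure D4:**
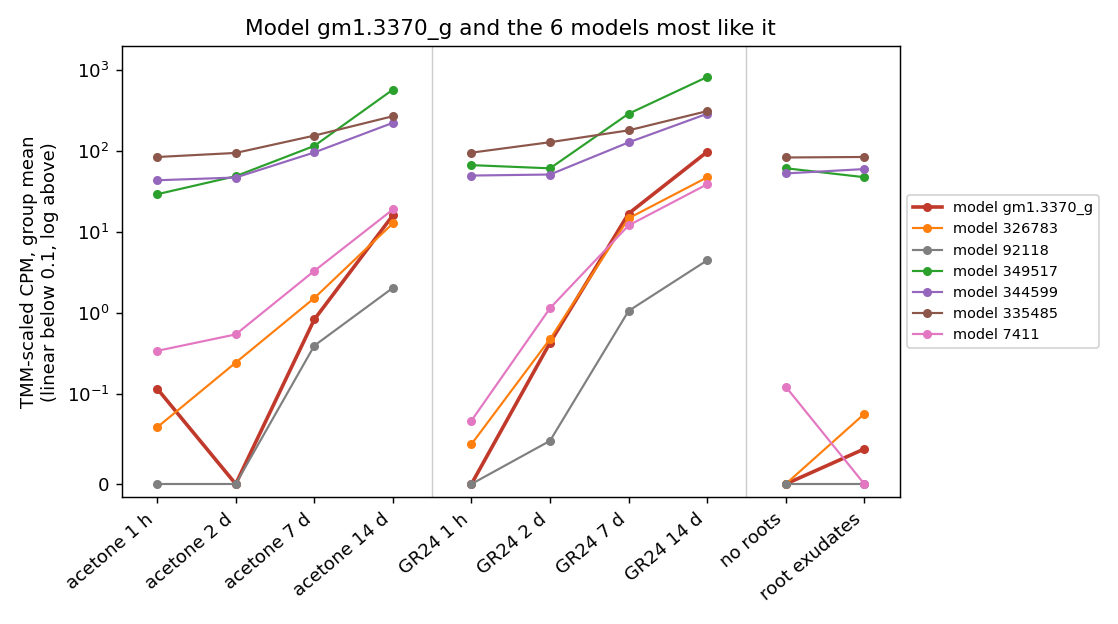
Mean TMM-scaled CPM (vertical axis, linear below 0.1 and logarithmic above) of model gm1.3370_g and of the 6 models with the highest correlation with it, by group. All 7 are highest with GR24 at 14 d, and the receptor-like model 326783 follows model gm1.3370_g most closely, from under 1 CPM at 2 d to 47.6 CPM.

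Of the known GR24-responsive models, the chitin synthase model shared the late course in part. The LysM and collagen-like models were highest in the time course at 2 d. The chitin synthase model, which builds cell wall chitin, already stood at 65.3 CPM with GR24 at 1 h against 1.17 CPM in acetone, where model gm1.3370_g had no read with GR24. At 7 d the chitin synthase model stood at 56.0 CPM with GR24 and 0.835 CPM in acetone, where model gm1.3370_g had 17.0 and 0.834 CPM. At 14 d it stood at 101.2 and 5.93 CPM, where model gm1.3370_g had 98.2 and 16.2 CPM. The LysM model, of a chitin-binding domain class, stood at 31.7 CPM with GR24 and 33.9 CPM with acetone at 2 d. Model gm1.3370_g was then at 0.431 and 0 CPM. At 7 d the LysM model stood at 19.4 CPM with GR24 and 0.570 CPM with acetone. At 14 d it was at 0.359 and 0.1003 CPM, when model gm1.3370_g was at its highest. The collagen-like model stood at 25.9 CPM with GR24 and 27.8 CPM with acetone at 2 d. It was at 18.9 and 0.835 CPM at 7 d and at 0.194 and 0.073 CPM at 14 d. In the root set the LysM model was at 136 CPM without roots and 78.8 CPM with root exudates, and the collagen-like model at 178 and 100.4 CPM, with libraries that overlapped. The chitin synthase model was at 21.7 and 8.87 CPM without roots and at 0.395, 0, and 0.234 CPM with root exudates, by the titles, and these did not overlap. Its log2 fold change there was -6.03 ± 0.65, the opposite direction to GR24, and it turns round with the group names.

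Because the permease and the siroheme-linked model ranked so high by Pearson's r, lists for sulfate uptake and reduction, sulfur amino acid synthesis and the molybdenum cofactor were drawn after the ranking had been seen, and they are described without a test. Neither model was among the 6 most like by Spearman's correlation (0.769 and 0.873) or with the time-course libraries only. A late course was taken as at least 1 CPM at 14 d and a level at least 2-fold above that of 2 d in both arms, which 396 of the 23128 models with a read met (1.71%). That share also counts models with too few reads to reach 1 CPM. Of 8 sulfate uptake and reduction models with reads, 4 had a late course. They were the permease 349517, the sulfate adenylyltransferase 78687, which activates sulfate with ATP, the phosphoadenosine phosphosulfate reductase 348690, which makes sulfite, and the sulfite reductase 340992, which makes sulfide. The permease had led to the list, so it is no independent case. All 4 stood lower in both root groups than at 14 d in the time course. Of 21 models of sulfur amino acid synthesis 2 had a late course, the homoserine O-acetyltransferase 349725 and the cystathionine gamma-lyase 350050. These 2 stood lower in both root groups as well. The share of all late models that did so was not taken.

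The GR24 difference of these models was far smaller than that of model gm1.3370_g. Model gm1.3370_g was chosen for this difference in the same libraries and the others for their late course. The gap is thus a description only. At 7 d the ratio of mean CPM, GR24 to acetone, was 20.4 for model gm1.3370_g, 2.5 for the permease, 1.47 for the phosphosulfate reductase, 1.45 for the adenylyltransferase and 0.979 for the sulfite reductase. At 14 d these ratios were 6.08, 1.43, 1.23, 1.26 and 0.989. The adenylyltransferase stood at 185 ± 12.7 CPM at 2 d in acetone, 616 ± 78.9 CPM at 14 d in acetone and 66.3 ± 6.51 CPM without roots, so the root set was below every time-course group for it.

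**Figure D5:**
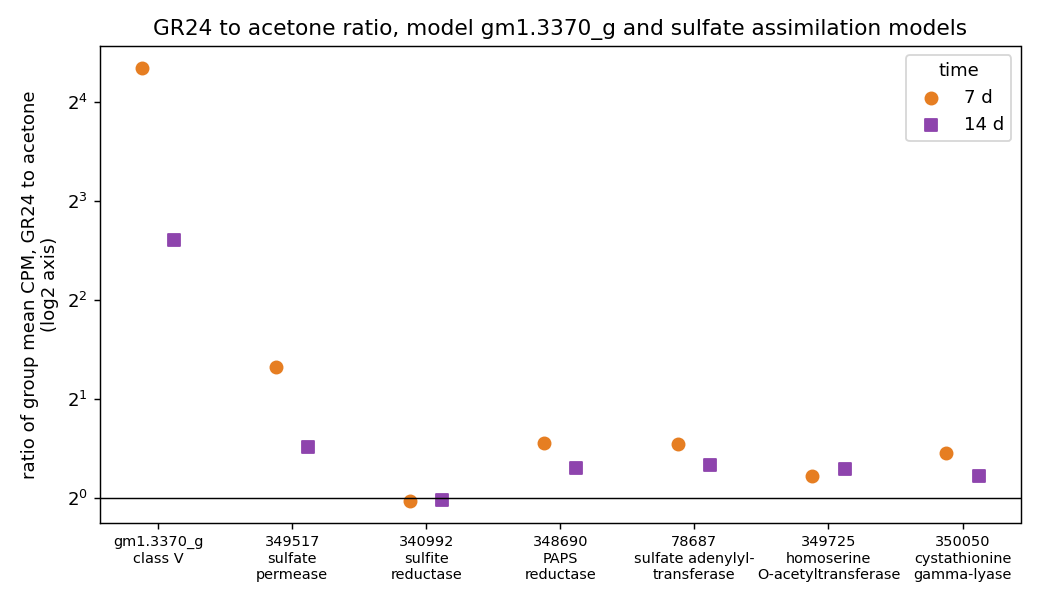
Ratio of mean CPM with GR24 to that with acetone (vertical axis, log2 scale) at 7 d and 14 d, for model gm1.3370_g and 6 late models of sulfate assimilation and sulfur amino acid synthesis. Model gm1.3370_g lies at 20.4 and 6.08, and the others lie between 0.979 and 2.5.

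Among 11 molybdenum cofactor models with reads other than gm1.3370_g, 1 had a late course, the MoeA-type molybdopterin synthesis model 309174, with 152 CPM at 2 d and 366 CPM at 14 d in acetone. It stood at 329 ± 19.7 CPM with GR24 at 14 d, below its acetone level of 366 ± 15.1 CPM. The xanthine dehydrogenase model 11939, an enzyme that depends on the sulfurated cofactor, was even, at 221 ± 12.6 CPM in acetone and 214 ± 6.08 CPM with GR24 at 14 d. The sulfite oxidase or nitrate reductase type model 335443 stood at 83.2 ± 5.13 and 69.7 ± 1.96 CPM there.

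The summed CPM of a housekeeping list of 138 models ran from 21550 to 22880 over the 7 d and 14 d libraries, so the late libraries were alike in it. It was 27050 to 28430 at 1 h and 17180 to 19010 in the root set. Its part in the course of model gm1.3370_g was not tested.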

How the data were processed

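Paired Illumina reads of poly-A selected RNA were counted per gene model by the authors. Per the file headers, the deposited count columns are total gene reads and unique gene reads, and the deposited RPKM values, gene length and a signed fold change of weighted proportions (a score of the authors' comparison by Baggerley's test) stand beside them. No source used here names the aligner or the genome build. Of the model lengths, 91.7% are multiples of 3, so they are mostly coding lengths.

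Total gene reads were fitted with edgeR 4.0.16 in R 4.3.3 (filterByExpr by group, TMM scaling, robust 2-sided quasi-likelihood test), each comparison on its own 2 groups, with Benjamini-Hochberg adjustment over all models tested and a threshold of 0.05. The standard error was taken from the log2 fold change and its F value. Model gm1.3370_g failed the filter in every comparison without 7 d or 14 d libraries of the time course and in acetone from 2 d to 7 d, so exact permutation tests on CPM were added. Tested on simulated data, the 7 d fit recovered 97% and the 14 d fit 95% of models changed by 2 on the log2 scale. The changed models were drawn at random from those passing the filter. These rates thus do not cover a model with as few reads as gm1.3370_g had in acetone at 7 d. DESeq2, limma-voom, RLE scaling, no filter, unique reads, a replicate block, 1 fit of all libraries and leaving out each library were alternatives.

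Named models were gm1.3370_g, the 6 with the highest Pearson's r with it (log2 CPM, prior count 2), the 4 highest with a description, the 2 lowest, class V members called, and 3 known models for comparison. Members and lists were chosen with earlier results of these data known, and members named from the other lists were picked after their values were seen. Replicate pairs differed by more than counting noise (chi-square per degree of freedom from 2.66 to 9.09), so none was merged. The number of reads limits the precision, and floors of 3 reads cover counting error only, since reads that carry no molecular identifier may be copies of 1 molecule. A further 5 labelled samples were not analysed here.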

Additional observations from a re-analysis of the deposited data

How the results depend on the processing

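Model gm1.3370_g kept its direction in the alternatives run, except that the root difference was 0 in 1 of the fits that left out a library. With each library left out in turn, its log2 fold change for GR24 over acetone ran from 3.76 to 5.25 at 7 d and from 2.40 to 2.78 at 14 d, from 3.70 to 5.18 for acetone from 7 d to 14 d, from 4.86 to 5.82 for GR24 from 2 d to 7 d and from 2.32 to 2.77 for GR24 from 7 d to 14 d. Its difference in CPM ran from 0.288 to 0.574 for GR24 at 2 d and, with the same range, for GR24 from 1 h to 2 d, and from 0.435 to 1.23 for acetone from 2 d to 7 d. For GR24 from 1 h to 2 d the log2 fold change passed the threshold without a filter (4.87, adjusted p = 0.0483 by edgeR) and in 1 fit of all libraries (4.86, adjusted p = 0.0119), where the filter keeps the model only through the late groups it was chosen on. Both folds stand against a group with 0 reads and are no bound, so neither is taken as a call. With the replicate number as a block it was 2.57 for GR24 at 14 d, 4.53 for acetone from 7 d to 14 d and 2.46 for GR24 from 7 d to 14 d. Deviations of same-numbered libraries correlated from -0.0786 to 0.0633 over the comparisons, so no deviation shared by number was seen. These values cannot tell whether same-numbered samples were handled together. The block could not be fitted for GR24 against acetone at 7 d or for GR24 from 2 d to 7 d, where the groups share 1 number.

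Without a library, the class V models called at 1 h ran from 0 to 1. At 7 d 1 was called with RLE scaling and with limma-voom, and in the root comparison 2 in 1 fit of all libraries. Of all models, leaving out a library gave 689 to 1418 calls at 1 h, 46 to 457 at 2 d, 574 to 1315 at 7 d, 250 to 513 at 14 d and 795 to 2919 in the root comparison. At 2 d, where 316 models were called, 831 were called without a filter, 504 with the block and 591 in 1 fit of all libraries. At 7 d, with 917 called, DESeq2 called 524 and 1 fit of all libraries 553. At 14 d, with 457 called, these were 863 without a filter and 201 in 1 fit of all libraries, and in the root comparison, with 2245 called, 3434 in that fit. Of the 6 most like models, 3 were shared with Spearman's ranking and 3 with the time-course libraries only. The permease 349517 and the siroheme-linked model 335485 were lost in both, and model 335485 also with group means. The cause was not tested.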
